A study of Mus musculus with 78 samples.

Results

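Perineuronal nets and the fast-spiking interneurons they enwrap were followed through 10 genes in 78 poly(A) RNA libraries from 7 brain regions of mice. The 10 genes were chosen by name among the 55367 gene symbols counted, and each was found in both count tables, 1 for each sex. They code for net matrix proteins (Acan, Bcan, Ncan, Tnr), link proteins (Hapln1, Hapln4), the calcium buffer parvalbumin (Pvalb) and voltage-gated potassium channels (Kcnc1, Kcna1, Kcna2). The set was put together after Kcna1 and Tnr had been seen to be lower in the cortex of female mice lacking Acss2. The question was whether that difference extended to the other 8 genes, to males and to other regions.

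The mice were adults of the C57BL6/J strain, single-housed, and belonged to one of 2 genotypes. ACSS2 KO mice carried a constitutive CRISPR/Cas9 deletion of the stretch from exon 3 to exon 7 of Acss2, backcrossed for 3 generations, and WT mice did not. Acss2 encodes a synthetase that makes acetyl-CoA from acetate. Every animal, WT included, had consumed 15% ethanol in the drinking-in-the-dark model after 1 week of habituation, in sessions of 2 h and a last session of 4 h, first with water beside it and in the next week without it. There were thus no ethanol-naive mice. The 12 mice, 3 for each sex and genotype, gave 3 libraries for each sex, genotype and region, except for 2 female WT libraries in cortex and amygdala, and, in prefrontal cortex, 2 female WT, 2 male WT and 1 male KO library.

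A perineuronal net is a lattice of extracellular matrix that forms around the soma and proximal dendrites of certain neurons, most often parvalbumin interneurons, as a circuit matures. Hyaluronan forms its backbone, lecticans such as aggrecan (Acan), brevican (Bcan) and neurocan (Ncan) bind to it, link proteins stabilise that bond, and tenascin-R (Tnr) cross-links the lecticans. The wrapped neurons fire at high rates, for which the fast potassium channel Kv3.1 (Kcnc1) repolarises the membrane within a short time. Kv1.1 (Kcna1) and Kv1.2 (Kcna2) sit along axons, in many kinds of neuron, and hold excitability down. None of these genes is confined to the wrapped cells. Brevican, neurocan and tenascin-R are also made by glia, and in bulk tissue fewer cells of a type and less RNA per cell cannot be told apart.

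Per the GENCODE M21 annotation of GRCm38, each of the 10 is a protein-coding gene with a locus of its own. Tnr spans chr1:159523769-159931729 (+), Acan chr7:79053483-79115099 (+) and Bcan chr3:87987531-88000230 (-). Ncan, at chr8:70093085-70120873 (-), and Hapln4, at chr8:70083457-70090862 (+), lie 2222 bases apart with their 3′ ends facing. Hapln1 is at chr13:89539796-89611652 (+) and Pvalb at chr15:78191114-78206400 (-). Kcnc1 is at chr7:46396497-46438704 (+), Kcna1 at chr6:126640397-126646384 (-) and Kcna2 at chr3:107101146-107115005 (+). Acan likewise ends 2 bases before the end of Hapln3, on the opposite strand. The library kit named in the labels does not mark the strand, so reads from overlapping genes cannot be told apart. Of the members, Tnr overlaps 3 other annotated genes (Gm10530, Gm37731 and Gm38039), Ncan overlaps Mir7066 and Hapln1 overlaps Gm8546.

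The RefSeq promoter table of GRCm38.p6 held 8 of the 10 genes, and Kcna1 and Hapln4 had no entry. The 250 bases before the start are printed for Tnr, the member with its lowest level in the cortex, and for Pvalb (the first of its 2 starts in the table) and Kcnc1, which had their highest level there. The windows are chr1:159523519-159523768 (+), chr15:78206401-78206650 (-) and chr7:46396218-46396467 (+). Capitals mark matches, on both strands, to any of 5 motifs searched. These were the TATA box, spelled TATAAA, and the CCAAT box. The E-box was searched as CANNTG, which reads the same on both strands. The core of the cAMP response element was searched as TGACG. The GC box was searched as GGGCGG.
Tnr: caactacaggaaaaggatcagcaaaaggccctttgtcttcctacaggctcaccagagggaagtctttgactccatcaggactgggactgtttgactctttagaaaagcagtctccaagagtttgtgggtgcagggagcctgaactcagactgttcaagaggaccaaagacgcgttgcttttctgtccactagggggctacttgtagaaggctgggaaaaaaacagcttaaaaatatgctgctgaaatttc
Pvalb: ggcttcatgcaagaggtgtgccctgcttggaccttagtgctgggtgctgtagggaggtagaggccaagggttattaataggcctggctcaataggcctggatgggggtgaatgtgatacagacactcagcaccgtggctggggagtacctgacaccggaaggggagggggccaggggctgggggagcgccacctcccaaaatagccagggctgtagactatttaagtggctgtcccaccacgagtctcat
Kcnc1: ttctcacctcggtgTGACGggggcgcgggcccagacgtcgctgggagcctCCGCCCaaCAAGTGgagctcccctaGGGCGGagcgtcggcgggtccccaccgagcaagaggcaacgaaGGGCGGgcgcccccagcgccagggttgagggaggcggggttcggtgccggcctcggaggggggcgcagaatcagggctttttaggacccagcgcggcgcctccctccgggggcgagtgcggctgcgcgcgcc
The Kcnc1 window held 3 GC boxes, 1 cAMP response element core and 1 E-box, and no letters of the Tnr and Pvalb windows matched. Of 32851 windows of this length, 32.7% held a GC box, 17.8% a cAMP response element core, 66.2% an E-box, 33.8% a CCAAT box and 12.4% a TATA box. The GC content of the printed windows was 46.8% for Tnr, 58.4% for Pvalb and 74.4% for Kcnc1, against a median of 52.4% over all windows. A match describes these letters only.

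Depth, the total count of a library, fell into separate ranges. It lay between 4454420 and 14487778 in the 47 libraries of amygdala, dorsal hippocampus and both parts of the striatum, and between 629635 and 1228828 in the 31 libraries of cortex, prefrontal cortex and ventral hippocampus. In the latter a count of 3 corresponds to 2.44 to 4.76 CPM, the count scaled to a common library total, which covers counting error only. Acss2 ranged from 0.971 to 13.96 CPM in the 40 KO libraries and from 35.9 to 73.8 CPM in the 38 WT libraries, with no overlap. The library labelled female WT 23 of prefrontal cortex had 0 counts of Xist and 73.4 CPM of the Y-linked Ddx3y, against its label. A further 7 libraries differed over 3-fold from the median of their region in the summed CPM of 9 striatal projection neuron markers. In dorsal striatum these were female WT 23 (299 CPM) and male KO 10 (496 CPM), against a median of 6063 CPM, and in ventral striatum male KO 10 (1104 CPM) and male WT 13 (474 CPM), against 4808 CPM. The others had more: female KO 6 in ventral hippocampus (4223 against 318 CPM) and amygdala (2388 against 498 CPM), and female KO 5 in prefrontal cortex (2253 against 669 CPM). Results that these libraries changed are also given without them.

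In female cortex, the contrast from which Kcna1 and Tnr were picked, the values are a description and carry no test. Tnr was at 74.0, 93.1 and 84.7 CPM in the 3 KO libraries and at 153.7 and 157.3 CPM in the 2 WT libraries. Kcna1 was at 51.3, 40.5 and 45.1 CPM in KO and at 102.0 and 89.2 CPM in WT. Both genes had all KO libraries below both WT libraries, with log2 fold changes of -0.89 (SE 0.17) for Tnr and -1.04 (SE 0.19) for Kcna1. Kcna2 followed at -0.45, with 322.5, 310.2 and 270.6 CPM in KO and 502.4 and 325.2 CPM in WT, where the highest KO library and the lower WT library nearly touch. The edgeR fit gave Tnr and Kcna1 an adjusted p of 0.0442 each, just under the threshold of 0.05, and Kcna2 was the nearest member outside. It called 4 of 10044 genes, or 0.0398%. As Tnr and Kcna1 were picked from this contrast, these calls restate the choice and are no support for it. DESeq2's Wald test called 0 members here, and edgeR called 0 when any mouse but WT 24 was left out and 1 without WT 24.

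**Figure D1:**
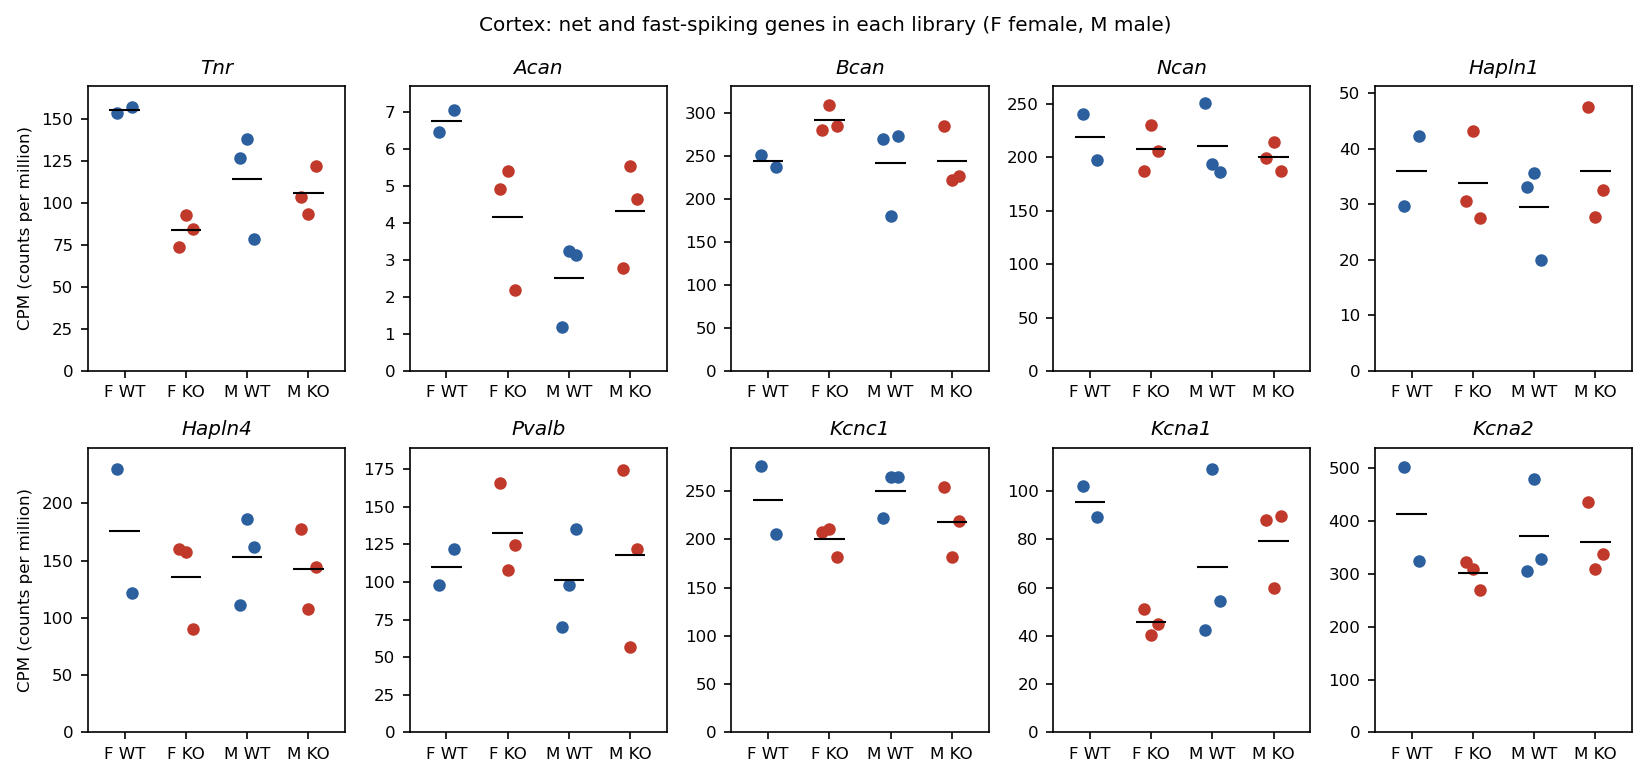
CPM of each gene in the 11 cortex libraries; each point is 1 library, blue for WT and red for KO, and the black line is the group mean. Tnr and Kcna1 show separate KO and WT values in females (F) and overlapping values in males (M).

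The rest of the group did not share one direction in female cortex. Hapln4 (-0.36), Kcnc1 (-0.26), Hapln1 (-0.12) and Ncan (-0.07) had values below 0, and Pvalb (0.28) and Bcan (0.26) above. With offsets for gene length and GC content, Hapln4 was at -0.42, Kcnc1 at -0.18, Hapln1 at -0.07 and Ncan at -0.03. Pvalb was then at 0.004 and Bcan at 0.19. Pvalb stood at 165.7, 107.9 and 124.3 CPM in KO and at 98.2 and 122.1 CPM in WT, so the parvalbumin transcript was not lower where Kcna1 and Tnr were. Bcan was at 280.1, 308.8 and 284.9 CPM in KO, all above the WT values of 250.6 and 237.2 CPM. Acan, the defining lectican of nets in the cortex, was at 4.93, 5.39 and 2.20 CPM in KO and at 6.46 and 7.04 CPM in WT, too few counts to pass the filter on low counts. Besides Tnr and Kcna1, which were picked for it, Acan and Kcna2 had every KO library below every WT library and Bcan had the reverse. Of the 12413 genes with at least 15 counts, 12.8% and 13.1% did so, and nothing is read from the members' count, since these libraries chose the genes. As background for the tissue, oligodendrocyte markers summed to between 2767 and 7444 CPM in the KO and to 3102 and 4613 CPM in the WT libraries, and GABA neuron markers to 1546 to 1868 CPM and to 1776 and 2246 CPM. Their part in the Tnr and Kcna1 values was not tested.

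Male cortex, whose libraries played no role in choosing the genes, did not repeat the female values. Tnr was at 103.3, 93.2 and 122.1 CPM in KO and at 126.7, 138.1 and 78.5 CPM in WT, and the groups overlapped. By edgeR the log2 fold change was -0.11 with SE 0.19, and the adjusted p was 1.00. Kcna1 was at 87.9, 59.9 and 89.5 CPM in KO and at 42.6, 109.0 and 54.4 CPM in WT, a log2 fold change of 0.18 (SE 0.27) in the direction opposite to that of the females. The WT values of Kcna1 alone ranged over more than the whole KO range. None of the 9 members tested was called, where the test called 1 of 9719 genes (0.0103%), which was Acss2, and none had an unadjusted p under 0.05. DESeq2 called none of the 9 either. The 9 values lay between -0.22 for Kcnc1 and 0.26 for Hapln1, with a median of -0.05 against -0.00 for all genes tested. No test was made of a difference between male and female effects, since the female values had chosen the genes.

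Outside the cortex no member was called in KO against WT. With both sexes in one edgeR fit, 0 of 10 members were called in the amygdala (0.00657% of all genes were), the dorsal hippocampus (0.0069%), the dorsal striatum (0.00689%) and the ventral striatum (0.00708%), and 0 of 9 in the prefrontal cortex (0.0925%) and the ventral hippocampus (0.00929%). Over these 6 regions, 5 of 58 values (8.62%) had an unadjusted p under 0.05, against 4.65% of all gene values in the same fits, and DESeq2 called none. Of these 5 values, 3 were in prefrontal cortex, where 8.63% of all gene values had such a p. Kcna1 had log2 fold changes of 0.22 (SE 0.21) in amygdala, -0.08 (SE 0.23) in dorsal hippocampus, 0.17 (SE 0.09) in dorsal striatum, 0.51 (SE 0.21) in prefrontal cortex, 0.23 (SE 0.14) in ventral hippocampus and 0.13 (SE 0.28) in ventral striatum. In 5 of the 6 regions its value was thus above 0, though in ventral striatum it was -0.0074 without the libraries that stood apart. The like fit over both sexes of the cortex gave -0.35, a value that holds the female libraries that chose the gene. Female cortex alone was at -1.04. Tnr had values of 0.11, -0.02, -0.17, -0.09, 0.12 and -0.09 in the same order, each smaller than 0.2 in size.

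Split by sex, none of the members passed in any of the remaining 11 comparisons, and 13 of the 107 values (12.1%) had an unadjusted p under 0.05, against 4.21% of all gene values in the same fits, or 1.91% to 9.84% by fit. Of the 13, 5 were in female prefrontal cortex, where 9.08% of all gene values had such a p. Members of a fit share its libraries. In female prefrontal cortex these include a WT library whose sex genes went against its label and a KO library that stood apart. DESeq2 called none of the 107. The share of all genes called was 0.00706% in male amygdala, 0.00721% in male dorsal hippocampus, 0.00996% in male ventral hippocampus, and 0.0% in both parts of the male striatum. Among females it was 0.0% in the amygdala and both parts of the striatum, 0.00707% in dorsal hippocampus, 0.00993% in ventral hippocampus and 0.452% in prefrontal cortex. The smallest adjusted p among the members was 0.199, for Kcna1 in female prefrontal cortex. Acss2 itself did not pass edgeR in female amygdala (log2 fold change -2.85, adjusted p 0.982) or female ventral striatum (-2.67, adjusted p 0.801). Nor did it pass in male ventral striatum (-3.10, adjusted p 0.0888), female dorsal striatum (-2.96, adjusted p 0.0822) or male dorsal striatum (-2.74, adjusted p 0.0506). A missing call in these comparisons thus does not show that a gene is unchanged.

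**Figure D2:**
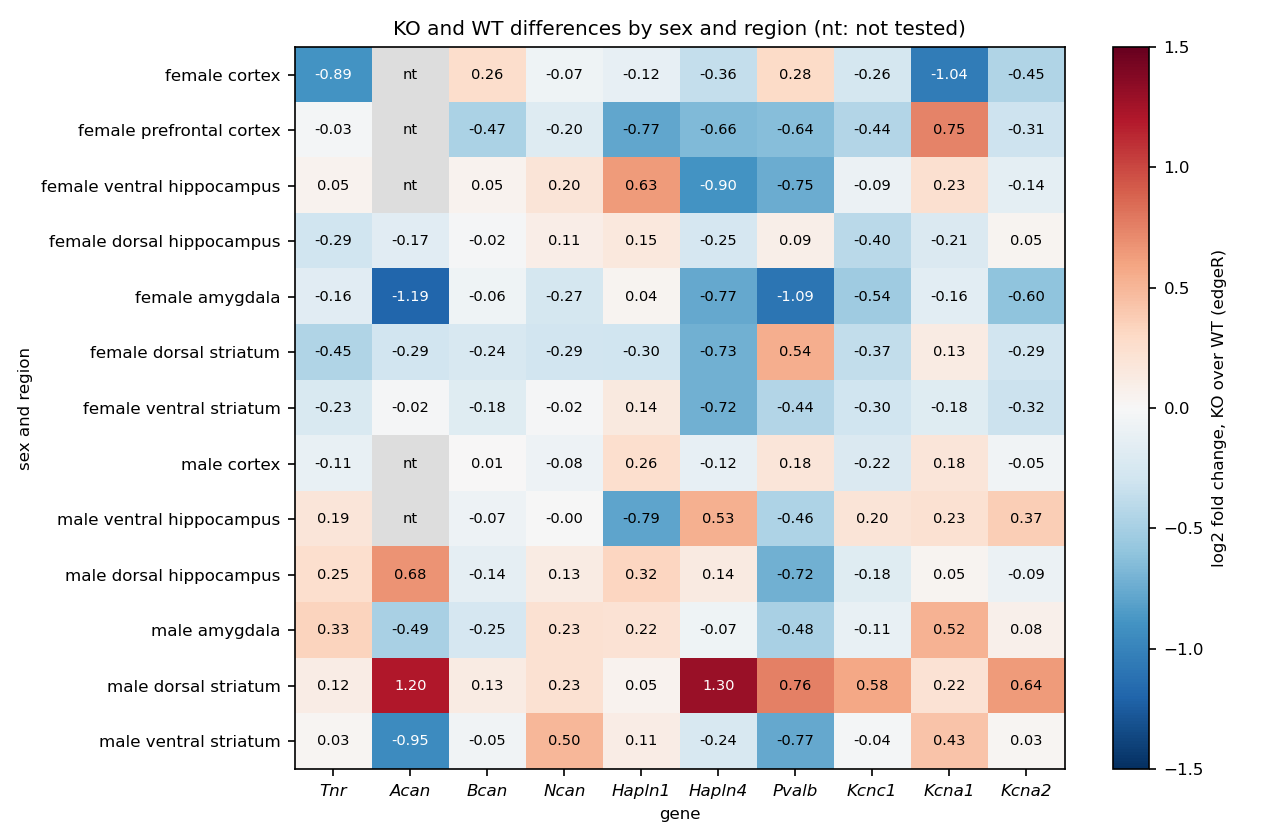
log2 fold change of KO over WT (edgeR) for each gene (columns) in each sex and region (rows); red is higher and blue lower in KO, and nt marks genes not tested for low counts. The values of -0.89 for Tnr and -1.04 for Kcna1 in the top row chose the genes, and no row below it holds a value that passed the threshold.

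Among the channels, Kcna1 in female prefrontal cortex ran against female cortex. It was at 60.2, 87.0 and 74.9 CPM in the KO libraries and at 39.2 and 48.9 CPM in the WT libraries, so that all KO values were above both WT values, with a log2 fold change of 0.75 (SE 0.22). The WT library at 48.9 CPM is the one whose sex genes went against its label. The KO library at 87.0 CPM is one whose striatal markers stood apart. Kcna1 in female dorsal striatum was likewise higher in every KO library (88.2, 89.6 and 90.1 CPM) than in every WT library (77.2, 83.0 and 83.5 CPM), by a log2 fold change of 0.13. The WT library at 83.0 CPM is one whose striatal markers stood apart. The part of these libraries in the Kcna1 values was not tested. Of all genes with at least 15 counts, KO lay wholly above WT in 12.2% in female prefrontal cortex and 3.98% in female dorsal striatum. Kcnc1 had values below 0 in 11 of 13 comparisons by sex and region, female cortex included, from -0.54 to 0.58. In female dorsal hippocampus it was at 182.7, 172.6 and 162.3 CPM in KO and at 216.1, 254.7 and 199.8 CPM in WT, with no overlap. The edgeR estimate was -0.40 on the log2 scale, with SE 0.13 and adjusted p 1.00. KO lay wholly below WT there in 2.32% of all genes with at least 15 counts. The 2 values above 0 for Kcnc1 were in males, at 0.20 in ventral hippocampus and 0.58 in dorsal striatum. Kcna2 had 8 values below and 5 above 0.

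Several female regions had most members on one side of 0 without a call. In female prefrontal cortex 8 of 9 values were below 0, with a median of -0.44, in amygdala 9 of 10, with a median of -0.40, and in ventral striatum 9 of 10, with a median of -0.20. Of all genes tested, 50.4%, 49.6% and 54.6% were below 0 in these fits. Female dorsal striatum had 8 of 10, with a median of -0.29, and 3 of 10, with a median of 0.11, without the WT 23 library that stood apart. Without the apart KO libraries, amygdala had 9 of 10, with a median of -0.45, and prefrontal cortex 8 of 9, with a median of -0.26. The 2 WT libraries of female amygdala lay far apart in Kcna2 (140.6 and 360.8 CPM), Kcnc1 (136.6 and 286.8 CPM) and Hapln4 (93.7 and 204.5 CPM). In Kcna2 and Kcnc1 every female KO library was above the lower WT value, so their values below 0 rest on 1 WT value each. Acan alone had every KO library below both WT libraries there. In males 5 of 10 values were below 0 in amygdala and 5 of 10 in ventral striatum. Without the libraries that stood apart, male ventral striatum had 7 of 10 below 0, with a median of -0.19.

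Markers of other cells moved in these regions too. In female amygdala 9 of 9 striatal markers (median 0.87) and 6 of 6 choroid plexus markers (median 3.08) had values above 0, and 12 of 12 oligodendrocyte markers (median -0.42) and 8 of 10 cortical excitatory markers (median -0.49) below. In female ventral striatum 12 of 12 oligodendrocyte markers (median -0.52), 9 of 9 astrocyte markers (median -0.31) and 8 of 10 cortical excitatory markers (median -1.09) had values below 0. In female dorsal striatum 10 of 10 cortical excitatory markers were below 0 (median -1.19) and 6 of 6 choroid plexus markers above (median 3.48). None of these markers was called by edgeR, and their part in the members' values was not tested. In female prefrontal cortex Hapln1 (-0.77), Hapln4 (-0.66), Bcan (-0.47) and Kcnc1 (-0.44) each had an unadjusted p under 0.05 and an edgeR adjusted p of 0.354 or above. In the same libraries oligodendrocyte markers summed to 7273 to 11999 CPM in KO and to 1826 and 3469 CPM in WT, and striatal markers to 828 to 2253 CPM in KO and to 265 and 486 CPM in WT. All 3 KO libraries were above both WT libraries in both sums, and their part in the members' values was not tested. Without the WT library whose sex genes went against its label, which leaves 1 WT library assumed to vary like the KO ones, Hapln4 was called at -0.98 (adjusted p 0.0267) and Kcna1 was at 0.89 (adjusted p 0.0967).

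Hapln4, the link protein that pairs with brevican at perisomatic inhibitory synapses, had 10 of 13 values below 0. In female ventral hippocampus it was at 54.5, 61.2 and 50.9 CPM in KO and at 100.4, 87.2 and 130.0 CPM in WT. Every KO library was below every WT library, at -0.90 (SE 0.19), with an unadjusted p of 0.00064 and an adjusted p of 0.996 by edgeR. Fitted without the filter on low counts, the same gene had an adjusted p of 0.00374. KO lay wholly below WT in 5.69% of all genes with at least 15 counts in this region of females. The KO library at 50.9 CPM, mouse 6, is one whose striatal markers stood apart. The other KO libraries also lay below every WT library. The part of those markers in the Hapln4 value was not tested. In males of this region the KO libraries had 163.3, 83.5 and 101.2 CPM and the WT libraries 69.2, 115.2 and 39.7 CPM, an overlap with a log2 fold change of 0.53.

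The largest KO value of Hapln4, 1.30 in male dorsal striatum, came from 1 library. Its values were 196.6, 18.2 and 20.97 CPM in KO and 14.6, 38.5 and 45.8 CPM in WT, and the library at 196.6 CPM, male KO 10, is one whose striatal markers stood apart. Without it the log2 fold change was -0.71. All 10 members had values above 0 in male dorsal striatum with that library (median 0.41), and Kcnc1 went from 0.58 to 0.09, Kcna2 from 0.64 to 0.19 and Pvalb from 0.76 to -0.37 without it. In female dorsal striatum the library of WT 23 had the same kind of value, 144.6 CPM of Hapln4 against 25.6 to 56.5 CPM in the other 5, and Hapln4 moved from -0.73 to 0.29 without it. The libraries of female WT 23 and male KO 10 had 1856 and 1763 CPM of Slc17a7, the vesicular glutamate transporter of cortical neurons, against 23.8 to 862 CPM in the other 10. Their Drd1, the dopamine receptor gene of striatal neurons, was at 10.8 and 13.9 CPM against 219 to 417 CPM. The part of these markers in the Hapln4 values was not tested.

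**Figure D3:**
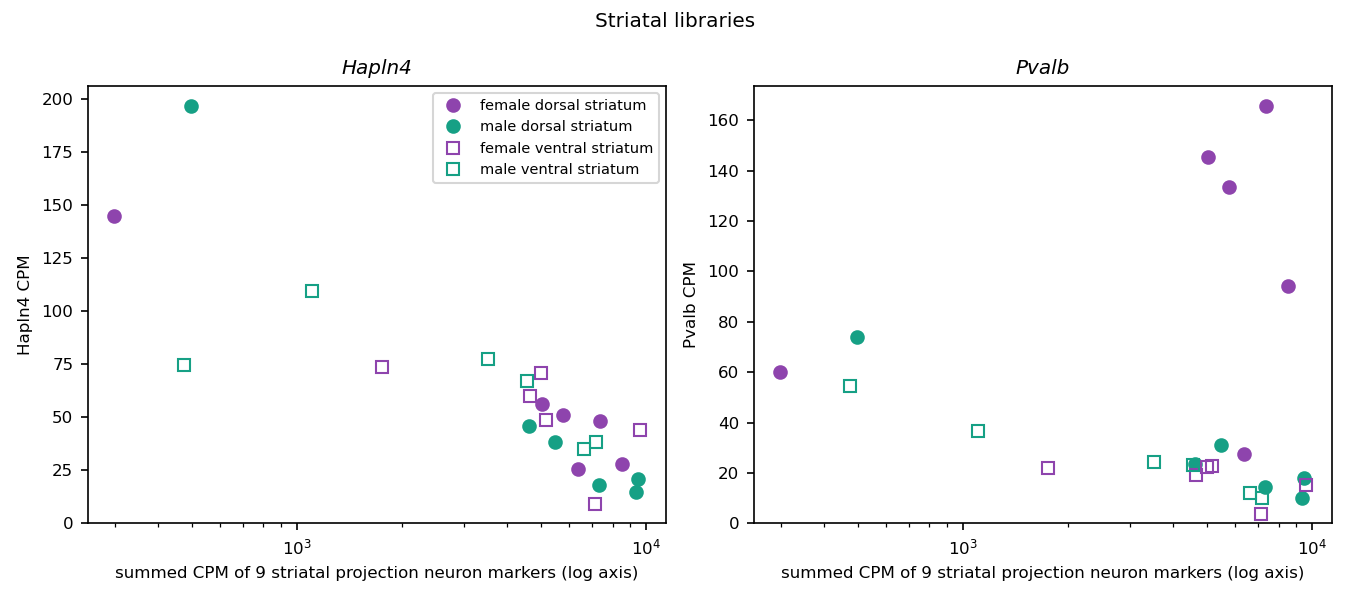
Hapln4 (left) and Pvalb (right) in CPM against the summed CPM of 9 striatal projection neuron markers (log axis) in the 24 striatal libraries; filled circles are dorsal, open squares ventral, purple female and green male. The dorsal libraries at 299 and 496 CPM of striatal markers have the highest Hapln4 values, 144.6 and 196.6 CPM, while the dorsal library with the highest Pvalb value, 165.5 CPM, has 7363 CPM of these markers.

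Pvalb had 8 values below and 5 above 0. In male dorsal hippocampus it was at 29.3, 28.6 and 18.7 CPM in KO and at 36.7, 42.5 and 51.3 CPM in WT, with no overlap, at -0.72 (SE 0.19, unadjusted p 0.00302, adjusted p 0.999). Without the filter on low counts its adjusted p was 0.00758. KO lay wholly below WT in 5.74% of all genes with at least 15 counts in male dorsal hippocampus. Female dorsal hippocampus had 39.2, 32.8 and 35.8 CPM in KO and 11.4, 78.8 and 13.2 CPM in WT, where the WT library at 78.8 CPM, mouse 23, lay far above the others and the log2 fold change was 0.09. Without that library it was 1.50 and called, with an adjusted p of 0.0162. That library also had 16696 CPM of oligodendrocyte and 4812 CPM of choroid plexus markers and the lowest sum of cortical excitatory markers of its region, 3054 CPM. Their part in its Pvalb value was not tested.

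Among the matrix proteins, Bcan and Ncan had KO values between -0.47 and 0.26 and between -0.29 and 0.50 over the 13 comparisons, and Tnr outside female cortex between -0.45 and 0.33. Hapln1 had values from -0.79 in male ventral hippocampus to 0.63 in the same region of females. Acan, where it was tested, had 6 of 8 values below 0, from -1.19 in female amygdala to 1.20 in male dorsal striatum, at levels that did not exceed 9.89 CPM in any library.

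The wider net and fast-spiking genes did not pass either, with a pair of exceptions. Of 27 other genes of net matrix and its enzymes and 22 other fast-spiking and axonal channel genes, 12 and 21 were tested in male cortex and 0 were called, with medians of 0.04 and 0.04. In female cortex, as a description, 10 of 13 and 19 of 21 values were below 0, with medians of -0.17 and -0.30 against 0.00 for all genes. In both sexes together the 6 other regions had 1 call, the sodium channel subunit Scn4b, which was higher in KO prefrontal cortex (log2 fold change 2.37, adjusted p 0.0311). Drd1, Adora2a, Ppp1r1b, Rgs9 and Pde10a of the striatal markers were called higher in the same fit. Among the comparisons by sex, Hapln2, a link protein of nodes of Ranvier made by oligodendrocytes, was higher in female KO prefrontal cortex (1.42, adjusted p 0.0388), beside oligodendrocyte markers such as Cnp, Mag, Mbp and Mog and the striatal markers Rgs9 and Ppp1r1b. Cux2, a marker of upper-layer cortical neurons, was lower there (-1.25, adjusted p 0.0171 by edgeR).

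By sex, no member was called with edgeR. The edgeR test of the sex term called 0 of the members in the amygdala (0.0394% of all genes called), cortex (0.104%), dorsal hippocampus (0.0414%), dorsal striatum (0.0482%), prefrontal cortex (0.042%), ventral hippocampus (0.0464%) and ventral striatum (0.0425%), with 6 of 67 values (8.96%) at an unadjusted p under 0.05, against 7.12% of all gene values and 18.1% of those in the amygdala. Sex and the table of counts cannot be told apart, as each sex has its own. The prefrontal fit counts WT 23 as female by its label, though its Xist and Ddx3y values went against that label. With any 1 library left out, 0 members were called by sex in prefrontal cortex. Pvalb had the widest differences. In dorsal striatum it was at 145.6, 133.4 and 94.4 CPM in female KO and 165.5, 59.9 and 27.6 CPM in female WT libraries, and at 74.1, 14.4 and 18.2 CPM in male KO and 10.3, 31.2 and 23.5 CPM in male WT libraries, a log2 difference of 1.89 (SE 0.49, adjusted p 0.479). In the amygdala the 5 female libraries had 7.78 to 91.8 CPM (median 31.8) and the 6 male libraries 3.66 to 13.3 CPM (median 6.88), a log2 difference of 2.20 (SE 0.57, adjusted p 0.123). The ranges overlapped in both regions, and DESeq2 called both differences, with adjusted p-values of 0.00512 in the amygdala and 0.0224 in dorsal striatum. Kcna1 ran the other way in dorsal striatum, with 77.2 to 90.1 CPM in the 6 female and 95.3 to 136.6 CPM in the 6 male libraries, at -0.39 (SE 0.10, edgeR adjusted p 0.467). The female library at 83.0 CPM and the male library at 136.6 CPM are those whose striatal markers stood apart. The share of all genes with separate ranges by sex was not counted, so nothing is read from the separation.

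Between regions, 42 of 87 values passed the edgeR test in the 9 pairs of regions compared. The share of all genes called ranged from 12.5% between the parts of the striatum to 52.1% for amygdala against dorsal striatum. These fits hold more libraries than those by genotype, and compare only regions of like depth. CPM per kilobase of exon, averaged over the 7 regions, ordered the genes from Bcan (62.4) over Pvalb (43.03), Ncan (28.3), Hapln4 (22.3), Kcna2 (21.7), Kcnc1 (18.8), Kcna1 (15.3), Tnr (13.3) and Hapln1 (4.90) to Acan (0.538). Pvalb had the widest spread, with a mean of 116 ± 35.7 CPM (SD, n = 11) in cortex, 7.26-fold that in prefrontal cortex (15.95 ± 9.88 CPM, n = 8). Bcan had the narrowest, 1.35-fold between prefrontal cortex (284 ± 50.4 CPM) and dorsal striatum (211 ± 32.4 CPM).

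**Figure D4:**
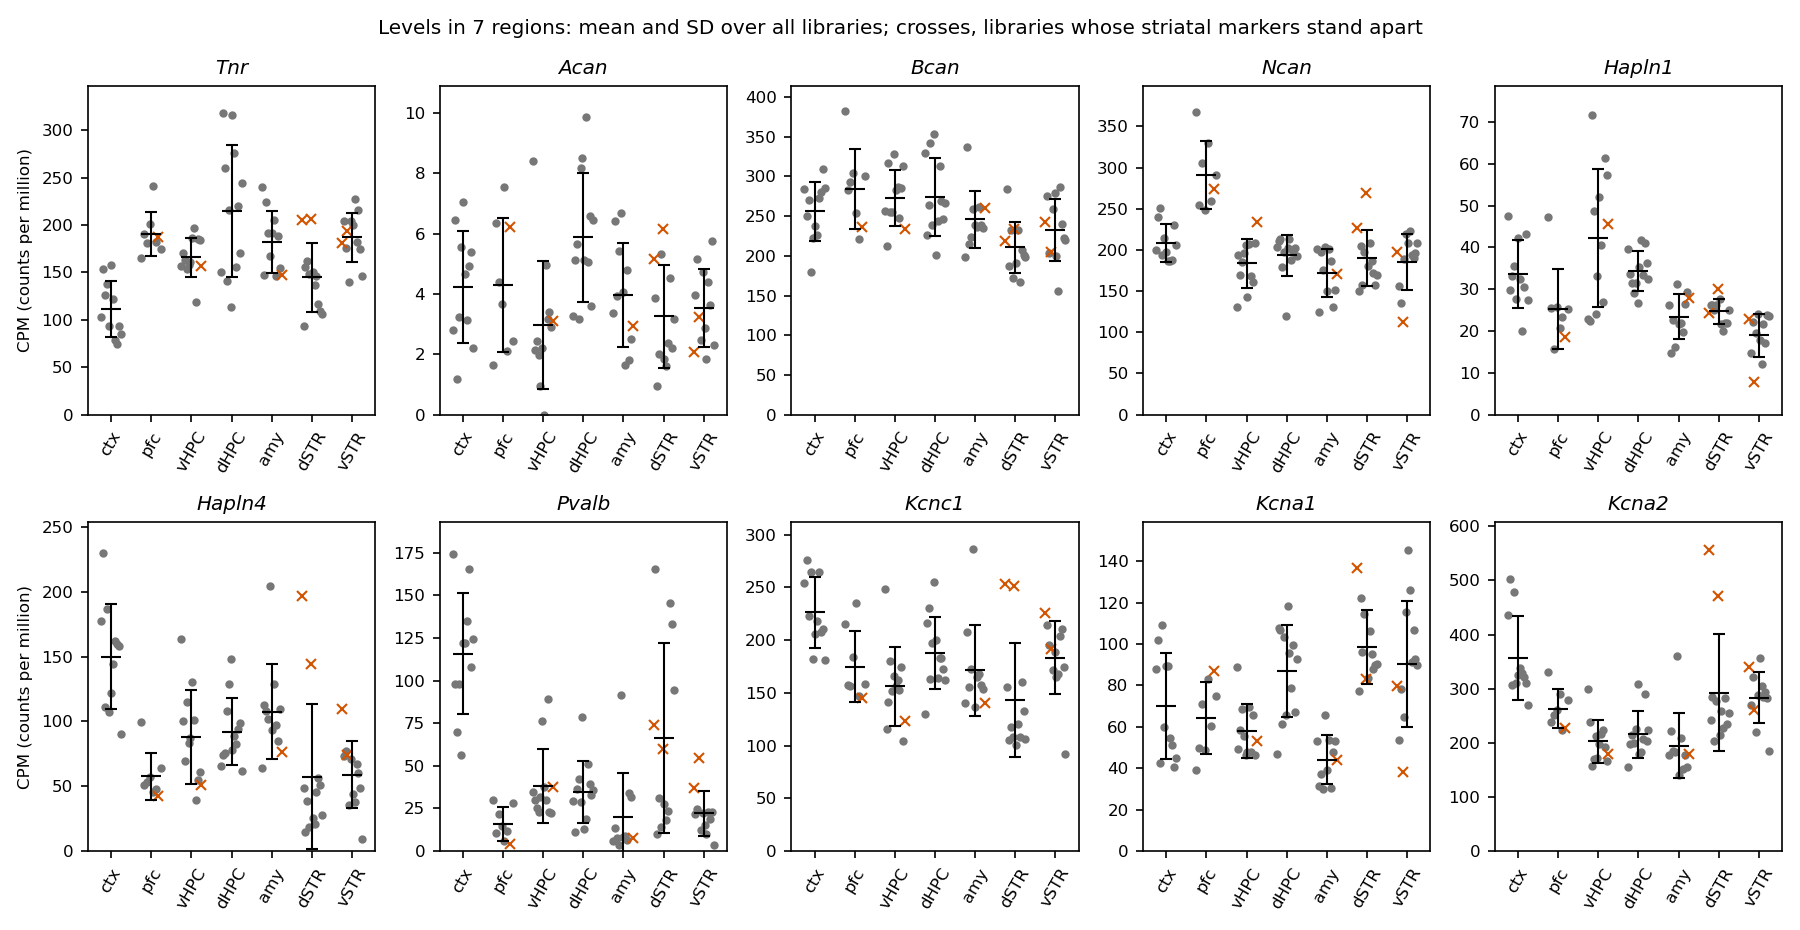
CPM of each gene in the libraries of cortex (ctx), prefrontal cortex (pfc), ventral and dorsal hippocampus (vHPC, dHPC), amygdala (amy) and dorsal and ventral striatum (dSTR, vSTR); points are libraries, crosses those whose striatal markers stand apart, and bars the mean and SD over all libraries. Pvalb, Hapln4, Kcnc1 and Kcna2 have their highest mean in cortex and Tnr its lowest.

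Several fast-spiking transcripts had their highest level in cortex. Pvalb was higher in cortex than in prefrontal cortex by a log2 difference of 2.92 (SE 0.30, edgeR adjusted p 2.08e-08), with cortex libraries at 56.6 to 174 CPM and prefrontal libraries at 4.44 to 30.2 CPM. The share of all genes with separate ranges between these regions was not counted. Hapln4 was higher by 1.48 (SE 0.19), Kcna2 by 0.53 (SE 0.12), Kcnc1 by 0.46 (SE 0.12) and Hapln1 by 0.59 (SE 0.21), while Tnr was lower at -0.68 (SE 0.10) and Ncan at -0.42 (SE 0.11). These are 7 of 9 members tested, where 32.1% of all genes were called. With the mouse as a block the Hapln1 difference was 0.39 with an adjusted p of 0.190. Kcna1 did not pass, at 0.24 (SE 0.15, adjusted p 0.239).

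Against ventral hippocampus, cortex was higher in Pvalb by 1.68 (SE 0.22), Kcna2 by 0.88 (SE 0.10), Hapln4 by 0.86 (SE 0.16) and Kcnc1 by 0.58 (SE 0.10), and lower in Tnr at -0.53 (SE 0.09), which makes 5 of 9 members against 27% of all genes. Without the ventral hippocampus and prefrontal libraries that stood apart, Ncan was also called higher in cortex (0.26, adjusted p 0.046). Tnr in the 11 cortex libraries, at 74.0 to 157 CPM (median 103), thus had its lowest mean where Pvalb, Hapln4, Kcnc1 and Kcna2 had their highest. Prefrontal cortex and ventral hippocampus differed in 5 of 9 members, against 25.5% of all genes. Ncan (0.63, SE 0.10) and Kcna2 (0.35, SE 0.11) were higher in prefrontal cortex, and Pvalb (-1.24, SE 0.32), Hapln1 (-0.86, SE 0.20) and Hapln4 (-0.62, SE 0.19) were lower. Acan was not tested in these regions, where 19 of 31 libraries had 3 counts or fewer.

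In the deeper libraries, Kcna1 marked off the amygdala. Its 11 amygdala libraries had 30.2 to 66.0 CPM with a median of 44.1, against 46.9 to 118 CPM (median 94.3) in dorsal hippocampus, 77.2 to 137 CPM (median 92.7) in dorsal striatum and 38.04 to 145 CPM (median 90.7) in ventral striatum. The ranges of amygdala and dorsal striatum were separate, a trait whose share among all genes was not counted. The log2 differences were -1.03 (SE 0.17), -1.15 (SE 0.17) and -0.98 (SE 0.17), each with an adjusted p of 2.23e-05 or below. Kcna2 was lower in amygdala than in dorsal (-0.56, SE 0.15) and ventral striatum (-0.49, SE 0.15), and Pvalb lower than in dorsal striatum (-1.72, SE 0.39) and dorsal hippocampus (-1.11, SE 0.39). Hapln4 was higher in amygdala than in dorsal (1.00, SE 0.32) and ventral striatum (0.96, SE 0.32). The members called were 4 of 10 in amygdala against dorsal hippocampus (36.3% of all genes), 4 of 10 against dorsal striatum (52.1%) and 4 of 10 against ventral striatum (43.1%), where Hapln1 was the remaining call at 0.34 (SE 0.13, adjusted p 0.034) and was not called without the libraries that stood apart (0.27, adjusted p 0.0691). With the mouse as a block 6 of 10 were called against dorsal striatum, with Bcan (0.23, adjusted p 0.0327) and Kcnc1 (0.28, adjusted p 0.0486) added. Without the libraries that stood apart 6 of 10 were called as well, with Tnr (0.45, adjusted p 0.0214) and Kcnc1 (0.49, adjusted p 0.00173) added and Hapln4 at 1.74.

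Dorsal hippocampus exceeded the striatum in several matrix transcripts. Hapln1 exceeded ventral striatum by 0.94 (SE 0.13), dorsal striatum by 0.52 (SE 0.13) and amygdala by 0.60 (SE 0.13). Acan, at 3.18 to 9.89 CPM (median 5.39), was higher than in dorsal striatum by 0.94 (SE 0.22), in ventral striatum by 0.85 (SE 0.22) and in amygdala by 0.63 (SE 0.22). Bcan was higher than in dorsal (0.42, SE 0.09) and ventral striatum (0.32, SE 0.09), and Tnr higher than in dorsal striatum (0.63, SE 0.15). Hapln4 was higher than in dorsal (0.81, SE 0.31) and ventral striatum (0.76, SE 0.32), and Kcnc1 higher than in dorsal striatum (0.44, SE 0.14). In all 7 of 10 members differed between dorsal hippocampus and dorsal striatum (51.9% of all genes called) and 4 of 10 between dorsal hippocampus and ventral striatum (50.8%). Kcna2 ran the other way, at -0.39 (SE 0.15) against dorsal striatum, and was no longer called without the libraries whose striatal markers stood apart (-0.20, adjusted p 0.193). Without those libraries Hapln4 exceeded dorsal striatum by 1.52, and Pvalb was called higher than in ventral striatum (1.06, adjusted p 0.0138). Kcna2 was called lower than in ventral striatum without them, and also with the mouse as a block (-0.32, adjusted p 0.0289).

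The 2 parts of the striatum differed in 2 of 10 members, against 12.5% of all genes. Pvalb was higher in dorsal striatum by 1.37 (SE 0.37, adjusted p 0.0127), with 10.3 to 165 CPM and a median of 45.6 against 3.54 to 54.5 CPM and a median of 22.2, and Hapln1 by 0.42 (SE 0.13, adjusted p 0.0266). The Pvalb ranges overlapped, and the 3 highest dorsal libraries were all female. Without the libraries that stood apart 4 members were called, with Kcnc1 (-0.52, adjusted p 0.00549) and Tnr (-0.47, adjusted p 0.0447) lower in dorsal striatum, and Hapln4 in dorsal striatum had a mean of 34.8 ± 15.1 CPM (SD, n = 10) in place of 57.4 ± 55.7 CPM (n = 12). With the mouse as a block Kcnc1 was also called here (-0.35, adjusted p 0.0485).

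Across all 7 regions most neighbours in the order of means did not differ beyond the larger of their SDs. Exceptions were Hapln4 in cortex above amygdala (150 against 107 CPM), Kcnc1 in cortex above dorsal hippocampus (226 against 188 CPM), Kcna2 in prefrontal cortex above dorsal hippocampus (263 against 216 CPM), Ncan in prefrontal cortex above cortex (291 against 209 CPM) and Kcna1 in ventral hippocampus above amygdala (58.1 against 44.2 CPM). Depth set and region cannot be told apart in orders that mix both sets. As a description over the 7 regional means, Tnr and Pvalb had the most opposed pattern of any 2 members (Pearson r = -0.86) and Hapln4 and Kcnc1 the most alike (r = 0.66). Among 11753 genes of at least 5 CPM, the patterns most like that of Pvalb were those of Serf2 (r = 0.98), Calm2 (r = 0.97) and Mrps21 (r = 0.96), and those most like Tnr Parvb (r = 0.99), Fam193a (r = 0.98) and Rasgrf1 (r = 0.98). For Kcna1 they were Snrnp35 (r = 0.99), Pecam1 (r = 0.98) and Atf6 (r = 0.98), and for Acan Stx3 (r = 0.93), Dnajb5 (r = 0.92) and Zfp511 (r = 0.91). These correlations rest on 7 points that share libraries and depth. None of the 12 genes is another member.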

How the data were processed

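Per the labels' protocols, poly(A) RNA was isolated from 300 ng of RNA for each of the 78 libraries. The authors deposited raw read counts per gene symbol in 1 table for each sex. Per the submitters' processing notes, STAR 2.5.2a, SAMtools 1.1, HTSeq 0.6.1, DESeq2 and R 4.0.2 were used with GRCm38 (mm10). The annotation and the strand setting of the counting are not given in the sources used here. Mice are separate biological replicates, per the series' design text.

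Counts were scaled by the column total to CPM. Differences were tested on the counts with edgeR 4.0.16 (quasi-likelihood, TMM, filterByExpr with a minimum count of 10 and a minimum total of 15) and Benjamini-Hochberg adjustment over all genes tested, with an adjusted p under 0.05 as the threshold. Genotype was fitted within each sex and region, and with sex as a covariate over both sexes. Regions were compared within a depth set, averaged over sex and genotype groups. Alternatives were DESeq2 1.42.0 (size factors and Wald test), no filter, length and GC offsets, leaving out each replicate, the mouse as a block and, chosen after seeing the data, leaving out libraries whose striatal markers stood apart. Scripts were tested on simulated data.

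The members and gene lists were chosen with earlier results of these data known. The rule for names took the 10 members, the list genes that passed the threshold and, for Pvalb, Acan, Tnr and Kcna1, the 3 genes most like each across regions. Members that did not pass are mostly given by counts and ranges. Libraries of 1 mouse share its label: deviations from the group mean correlated at a mean of 0.049 over 69 same-mouse pairs in the deeper set and at -0.014 over 24 pairs in the other.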

Additional observations from a re-analysis of the deposited data

Results flagged for a closer look

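In 5 cases every KO library lay on one side of the WT libraries in one female region and on the other side in a second. None of these differences between regions was tested, and each value is the difference between the log2 ratios of group means in the 2 regions. Kcna1 was below WT in female cortex and above it in female prefrontal cortex, a difference of 1.82, and above it in female dorsal striatum, a difference of 1.20. Bcan was above WT in female cortex and below it in female prefrontal cortex, a difference of -0.70. Acan was below WT in female cortex and above it in female ventral hippocampus, a difference of 1.81, and below it in female amygdala, a difference of -2.27 from ventral hippocampus. Acan had 3 counts or fewer in 10 of the 12 ventral hippocampus libraries and in 5 of the 11 cortex libraries. Of all genes with at least 15 counts, KO lay wholly below and wholly above WT in 12.8% and 13.1% in female cortex, 10.8% and 12.2% in prefrontal cortex, 5.69% and 3.61% in ventral hippocampus, 5.95% and 10.9% in amygdala and 3.77% and 3.98% in dorsal striatum. Female cortex, from which Kcna1 had been chosen, enters 4 of the 5. The other regions of these cases hold libraries described above. Prefrontal cortex has WT 23, whose sex genes went against its label, and KO 5, whose striatal markers stood apart. Such markers also stood apart in WT 23 of dorsal striatum and in KO 6 of ventral hippocampus and amygdala. The part of these libraries in the 5 cases was not tested.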

How the results depend on the processing

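With 1 to 3 libraries in each group of a sex and region, and Acan near the limit of 3 counts in the shallower set, the precision for small differences is limited. In female cortex edgeR called 2 members, also 2 with DESeq2's size factors and 2 without the filter, while DESeq2's Wald test and the length and GC offsets called 0 and leaving out a mouse gave 0 to 1. Tnr was at -0.69 with the offsets, and Kcna1 at -1.05 with the offsets and -1.06 by DESeq2. These calls and values of female cortex are a description, since Tnr and Kcna1 were picked there. Without the filter 1 member was called in male dorsal hippocampus (Pvalb) and 1 in female ventral hippocampus (Hapln4), and with DESeq2's Wald test 1 by sex in amygdala and 1 in dorsal striatum (Pvalb in both). Leaving out a library gave 0 to 1 calls in female dorsal hippocampus and 0 to 1 in female prefrontal cortex, the call in each coming without WT 23. Leaving out a mouse gave 2 (mouse 3) to 7 (mouse 23) calls between amygdala and dorsal hippocampus, and 1 (mice 1, 2, 4, 6, 11 or 13) to 4 (mouse 23) between the parts of the striatum, where leaving out the libraries with apart striatal markers gave 4. Log2 fold changes that turned sign when 1 library was left out ranged from -0.059 to 0.68 for Kcna1 and from -0.33 to 0.053 for Tnr in male cortex, from -0.18 to 0.046 for Kcna1 and from -0.15 to 0.11 for Tnr in dorsal hippocampus, from -0.29 to 0.014 for Tnr in dorsal striatum, from -0.064 to 0.32 for Kcna1 in ventral striatum, and from -0.71 to 1.77 for Hapln4 in male dorsal striatum. Without the apart libraries Kcna1 in ventral striatum was at -0.0074 and Hapln4 in male dorsal striatum at -0.71. Kcna1 over both sexes of the cortex was at -0.35, a value that holds the female libraries. The causes were not tested.

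With the mouse as a block, 6 members were called between amygdala and dorsal striatum in place of 4, and 5 calls changed in all, each given beside its comparison; the block changed no other call between regions. Genotype and sex differ between mice, and no mouse block was fitted for them.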
